A study of Homo sapiens with 6 samples.

Results

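Interferon-stimulated genes were followed in the human colorectal cancer cell line HCT-8 after knockdown of PNISR, a nuclear serine and arginine rich protein. The set held 35 genes chosen by symbol (RIGI is also known as DDX58), and all 35 were matched by Ensembl ID among the 60664 genes of the count table. The cells had been transfected with the shPNISR plasmid (3 libraries) or with the control plasmid shNC (3 libraries), where sh stands for short hairpin RNA, so all 6 libraries came from cells given a plasmid. Apart from the plasmid, both groups were grown alike in serum-supplemented DMEM. The labels give neither the hairpin sequence, the time after transfection nor whether clones were picked. Nothing states that replicates were grown apart, and what the p-values weigh is the scatter among the libraries, possibly technical.

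When a cell detects foreign RNA or DNA it secretes interferons, and interferon bound to its receptor activates the kinases JAK1 and TYK2. For type I and type III interferons these kinases phosphorylate STAT proteins, among them STAT2, which enters with IRF9 into the complex ISGF3. ISGF3 binds the interferon-stimulated response element, a repeat of GAAA spaced by a pair of bases, in the promoters of antiviral genes. In intestinal epithelium the pathway is known for restricting enteric viruses, with type III interferons acting mainly on epithelial cells.

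Total counts ran from 15703210 to 17299847 in shPNISR and from 15049485 to 17977803 in shNC. PNISR had 18.5, 20.7 and 27.6 CPM (TMM-scaled CPM, the usual expression unit of counts relative to library size) in shPNISR 1 to 3, against 55.3, 50.2 and 62.8 CPM in shNC 1 to 3. Its log2 fold change was -1.33 ± 0.15 (SE; adjusted p = 8.73e-05 in edgeR's quasi-likelihood test, which was two-sided with Benjamini-Hochberg adjustment, as for every adjusted p below unless another tool is named). On the first principal component of all tested genes, which held 44.8% of the variance, shNC 2 scored 0.787, between 16.9 to 24.6 in shPNISR and -35.2 and -31.2 in the other shNC libraries. Results for genes of the set that rest on shNC 2 are therefore given with and without it. For genes outside the set this was done only where stated. Epithelial identity was seen in KRT8, at 2655 ± 365 CPM in shPNISR and 2239 ± 104 CPM in shNC (SD, n = 3 each), and KRT20 was nearly absent, with 0 to 7 counts per library. The 10 epithelial markers summed to 4858 to 6104 CPM in shPNISR and 4368 to 4992 CPM in shNC. Leukocyte markers summed to 6.04 to 7.50 CPM over 12 genes in shPNISR and 4.69 to 5.96 CPM in shNC, without overlap, with PTPRC, CD2 and NKG7 at 0 counts in every library. Fibroblast markers (8 genes) summed to 33.4 to 43.4 CPM in shPNISR and 28.2 to 45.7 CPM in shNC. Most of that sum was COL1A1 (log2 fold change 0.52 ± 0.17, adjusted p = 0.0988) and FBN1 (-0.57 ± 0.24, adjusted p = 0.234), whose fitted values had opposite signs. Endothelial markers (6 genes) summed to 1.47 to 1.66 CPM in shPNISR and 0.718 to 1.49 CPM in shNC. The sums of 4 plasmacytoid dendritic cell markers, nearly all of it TCF4, were 9.74 to 13.2 CPM in shPNISR and 12.1 to 15.3 CPM in shNC, and LILRA4 was at 0 counts in every library. The part of these markers in the results was not tested.

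The promoters of the set were searched for the response element letters, and 8 are printed here. They cover genes that rose, a gene that fell and genes that did not pass the test. The set was chosen as interferon-stimulated genes, so the share with a match describes that choice and not an effect of the knockdown. RefSeq promoter windows (GRCh38.p14, from 250 bases before to 50 after a start) were at hand for 28 of the 35 genes. The windows were searched on both strands for the response element letters GAAANNGAAA (TTTCNNTTTC on the other strand). At least 1 match was found in 20 of the 28 genes (71.4%), against 4.38% of all 27305 genes with a window. In 14 of them a window held at least 2 matches, which may overlap. The 150 bases before the start are given below on the strand of the gene, 5′ to 3′, with the matching letters in capitals. The windows are chr11:313890-314039 (plus strand) for IFITM1, chr11:320861-321010 (minus) for IFITM3, chr1:1013347-1013496 (plus) for ISG15 and chr14:94110586-94110735 (plus) for IFI27. For the other genes they are chr10:89392473-89392622 (plus) for IFIT1, chr10:89414418-89414567 (plus) for IFIT5, chr4:88456969-88457118 (plus) for HERC5 and chr3:122564301-122564450 (minus) for PARP9. The last capitals of IFITM1 and of IFIT5 run on past the start.
IFITM1: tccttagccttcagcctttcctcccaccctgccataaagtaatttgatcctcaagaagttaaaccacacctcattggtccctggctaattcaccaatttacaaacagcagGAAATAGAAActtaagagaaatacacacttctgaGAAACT
IFITM3: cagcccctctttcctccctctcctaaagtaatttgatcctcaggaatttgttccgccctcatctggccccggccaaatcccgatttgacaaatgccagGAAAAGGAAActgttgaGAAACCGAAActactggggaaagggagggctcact
ISG15: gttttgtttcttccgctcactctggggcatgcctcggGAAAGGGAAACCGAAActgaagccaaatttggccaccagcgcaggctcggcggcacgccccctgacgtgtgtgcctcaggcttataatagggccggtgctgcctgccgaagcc
IFI27: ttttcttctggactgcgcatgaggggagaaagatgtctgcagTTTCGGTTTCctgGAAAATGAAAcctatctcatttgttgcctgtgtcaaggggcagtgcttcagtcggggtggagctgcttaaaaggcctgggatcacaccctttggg
IFIT1: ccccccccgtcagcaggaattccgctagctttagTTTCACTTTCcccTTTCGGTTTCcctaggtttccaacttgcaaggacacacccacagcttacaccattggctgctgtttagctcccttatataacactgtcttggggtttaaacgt
IFIT5: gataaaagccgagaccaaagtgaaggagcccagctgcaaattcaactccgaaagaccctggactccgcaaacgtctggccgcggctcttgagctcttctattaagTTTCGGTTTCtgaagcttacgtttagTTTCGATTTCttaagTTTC
HERC5: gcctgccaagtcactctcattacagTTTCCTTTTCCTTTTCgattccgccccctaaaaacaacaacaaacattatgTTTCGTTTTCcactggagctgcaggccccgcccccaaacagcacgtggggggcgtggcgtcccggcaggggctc
PARP9: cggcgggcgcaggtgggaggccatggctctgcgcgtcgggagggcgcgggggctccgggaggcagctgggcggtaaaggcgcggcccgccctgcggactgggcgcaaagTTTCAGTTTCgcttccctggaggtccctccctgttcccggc

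In ISG15 a pair of overlapping matches began 113 and 107 bases before the start. In IFIT1 the matches began 116 and 103 bases before it. IFITM1 and IFITM3 carried theirs closer, from 40 and 6 bases before the start in IFITM1 and from 52 and 35 in IFITM3. MX1 has 3 windows, and a match lay at position 12 after the start in 1 of them and 196 bases before it in another. No match was found for IFI35, HERC6, OAS1, XAF1, STAT2, IRF1, IRF9 and RIGI, which says only that these letters are not in those windows. The gamma-activated site letters TTCNNNGAA, which are their own reverse complement, were found in 9 of the 28 genes (32.1%), against 9.38% of all genes; IRF1 and IRF9 were among the 9. A letter match is a description and does not show that a factor was bound.

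The filter on low counts passed 29 of the 35 genes, and 6 were too low to test. Of the 29 tested, 6 rose (20.7%): IFITM1, IFITM2, IFITM3, ISG15, OASL and IFI27. Over all 16102 genes tested 371 rose, which is 2.30%. A single gene of the set, PARP9, fell (3.45%), against 134 of all genes (0.832%), and 22 did not pass. Before adjustment, 16 had a p under 0.05 in the higher direction and 1 in the lower, against 9.98% and 7.79% of all genes tested. DESeq2 called 7 higher and 1 lower, against 2.96% and 1.42% of all genes, and limma voom also called 7 higher and 1 lower, against 2.63% and 0.901%. The median log2 fold change of the 29 was 0.48, against -0.01 over all genes tested, and 23 had a fitted value above 0, as did 47.9% of all genes. Every shPNISR library lay above every shNC library in 16 of the 29, against 11.5% of all genes tested, and below in 1, against 9.58% of all genes. In bulk RNA a change in every cell and a larger change in some cells cannot be told apart.

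**Figure D1:**
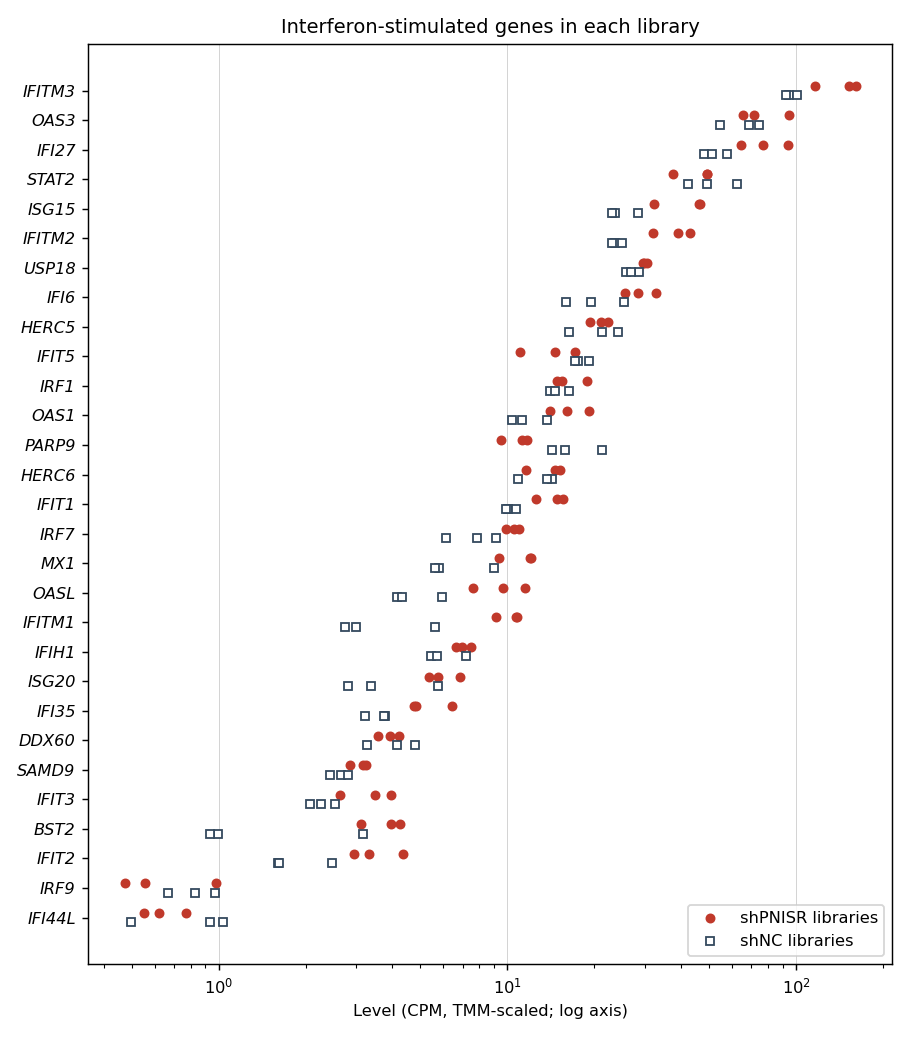
Level of each of the 29 tested interferon-stimulated genes, from highest to lowest mean, in every library (x axis, TMM-scaled CPM, log scale; filled circles are the 3 shPNISR libraries, open squares the 3 shNC libraries). In IFITM3, IFI27, ISG15 and IFITM2 the circles lie wholly to the right of the squares, whereas in HERC5, STAT2 and DDX60 they mix.

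The IFITM proteins sit in plasma and endosomal membranes and hinder fusion of enveloped viruses. All 3 IFITM genes of the set rose, against 2.30% of all genes tested. IFITM1 (ENSG00000185885, chromosome 11, 313506 to 315272, plus strand, GENCODE 29 on GRCh38) had 10.8, 10.7 and 9.14 CPM in shPNISR 1 to 3, against 2.98, 5.63 and 2.73 CPM in shNC 1 to 3. The shNC 2 library was the highest control and still below all of shPNISR. The log2 fold change was 1.44 ± 0.24 (SE, adjusted p = 0.00277), the largest of the set, and it passed in all 16 alternative fits (adjusted p 3.01e-08 to 0.0279). Without shNC 2 it was 1.83.

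IFITM2 (ENSG00000185201, chromosome 11, 307631 to 315272, plus strand) had 42.9, 39.1 and 31.95 CPM in shPNISR, against 23.5, 23.1 and 24.9 CPM in shNC. The groups did not overlap, and the log2 fold change was 0.67 ± 0.14 (adjusted p = 0.00953). IFITM3 (ENSG00000142089, chromosome 11, 319669 to 327537, minus strand) had 153, 161 and 116 CPM in shPNISR, against 94.8, 92.2 and 100.5 CPM in shNC, and a log2 fold change of 0.58 ± 0.12 (adjusted p = 0.0128). Of the shPNISR libraries shPNISR 3 was nearest to the controls. Leaving out shPNISR 1 ended the calls of IFITM2 (adjusted p = 0.0964) and IFITM3 (0.101), and leaving out shPNISR 2 that of IFITM3 (0.0576). The IFITM genes are close paralogs, and IFITM1 and IFITM2 overlap in the annotation, so their reads may be shared in part.

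BST2, or tetherin, holds budding virions on the cell surface. It had 3.97, 3.10 and 4.23 CPM in shPNISR, against 0.994, 3.17 and 0.932 CPM in shNC. Of the controls shNC 2 stood within the shPNISR range and the other 2 well below it. With all libraries BST2 did not pass (log2 fold change 1.16 ± 0.38, adjusted p = 0.116), and without shNC 2 it did (1.95, adjusted p = 0.000341). It also passed with all libraries by limma voom (adjusted p = 0.0446) and in edgeR with no low-count filter (0.00559).

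ISG15 is a ubiquitin-like protein that is conjugated to other proteins, HERC5 is the ligase that attaches it, and USP18 removes it and also damps signalling at the type I receptor. Of this system 1 gene of 4 rose (25%, against 2.30% of all genes tested). ISG15 (ENSG00000187608, chromosome 1, 1001138 to 1014540, plus strand) had 46.4, 46.1 and 32.1 CPM in shPNISR, against 23.5, 23.0 and 28.2 CPM in shNC. The groups did not overlap, with shPNISR 3 and shNC 3 closest, and the log2 fold change was 0.74 ± 0.15 (adjusted p = 0.0105). Its call ended without shPNISR 1 (0.66, adjusted p = 0.0964).

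USP18 had 29.85, 29.6 and 30.5 CPM in shPNISR, against 28.65, 25.8 and 26.8 CPM in shNC (log2 fold change 0.15 ± 0.13, adjusted p = 0.578). HERC5 averaged 20.9 ± 1.52 CPM in shPNISR and 20.6 ± 3.98 CPM in shNC, and its paralog HERC6 13.8 ± 1.93 CPM in shPNISR and 12.9 ± 1.81 CPM in shNC (SD, n = 3 each). The difference in HERC5 was 0.03 ± 0.16 on the log2 scale and in HERC6 0.09 ± 0.17, both smaller than the SE. Thus the modifier passed the test and its conjugating and removing enzymes did not; whether they differ from ISG15 in their response was not tested.

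The 2′-5′-oligoadenylate synthetases bind double-stranded RNA and, for OAS1, OAS2 and OAS3, make the messenger that activates RNase L. OASL lacks that activity and in human cells enhances signalling by RIGI. OASL (ENSG00000135114, chromosome 12, 121019111 to 121039242, minus strand) had 11.55, 9.68 and 7.60 CPM in shPNISR, against 4.14, 5.96 and 4.33 CPM in shNC, with no overlap. It rose by 1.00 ± 0.22 on the log2 scale (adjusted p = 0.0141), a call that ended without shNC 1 (0.90, adjusted p = 0.0716) or shPNISR 1 (0.86, adjusted p = 0.129).

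OAS1 had 16.1, 19.2 and 14.0 CPM in shPNISR, against 11.3, 13.7 and 10.4 CPM in shNC, again without overlap. It did not pass with all libraries (0.48 ± 0.17, adjusted p = 0.137) and passed without shNC 2 (0.60, adjusted p = 0.0253). OAS3, which lies beside OAS1 on chromosome 12 and makes the longest oligoadenylates, had 94.2, 65.2 and 71.2 CPM in shPNISR, against 74.1, 68.6 and 54.6 CPM in shNC, and the groups overlapped (0.23 ± 0.15, adjusted p = 0.445). Their neighbour OAS2 had 2, 2 and 0 counts in shPNISR and 0, 4 and 0 counts in shNC. ISG20, an exonuclease that degrades viral RNA, had 5.74, 5.33 and 6.87 CPM in shPNISR, against 3.37, 5.76 and 2.80 CPM in shNC. Here too shNC 2 alone reached the shPNISR range, and ISG20 passed only when that library was left out (0.59 ± 0.25, adjusted p = 0.225 with all libraries; 0.94, adjusted p = 0.0113 without it). OAS1, OAS2 and OAS3 overlap an antisense gene, whose reads cannot be separated without a known strand setting.

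**Figure D2:**
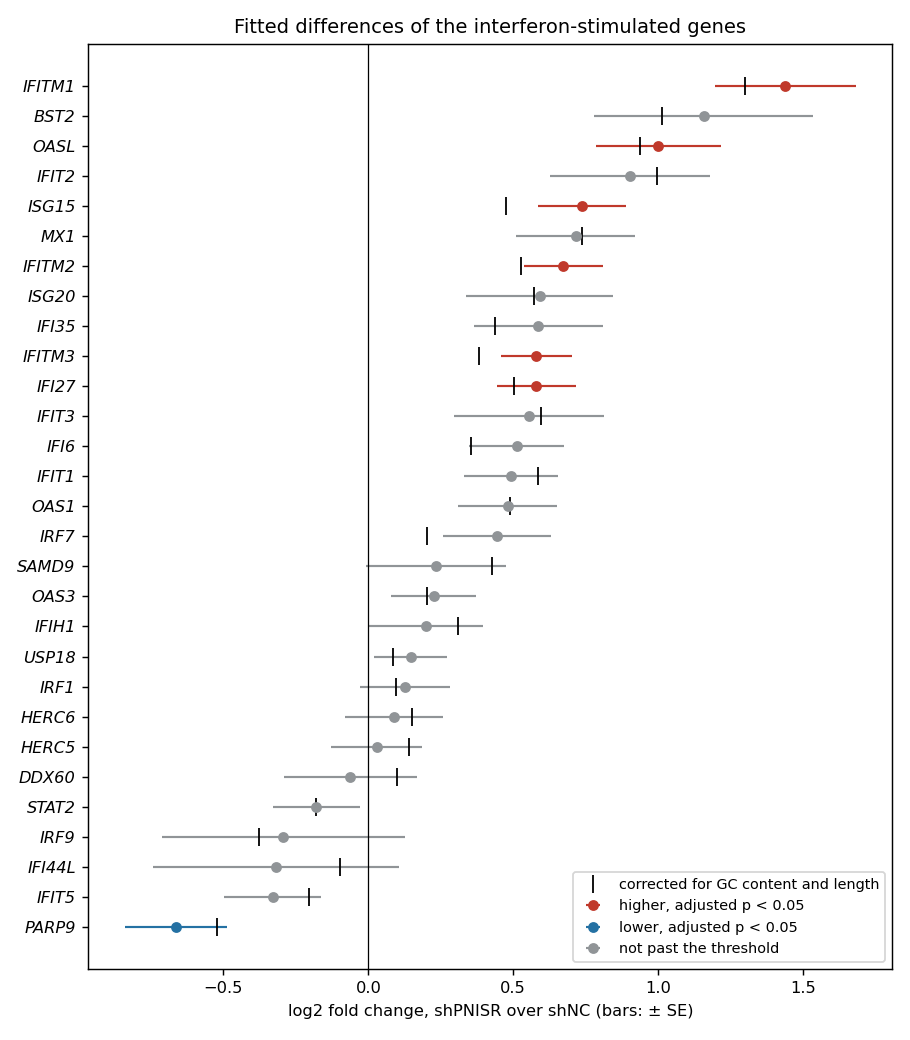
Log2 fold change of shPNISR over shNC for the 29 tested genes (points, with bars of ± 1 SE; red passed higher, blue passed lower, grey did not pass), and the value after correction for GC content and length (black ticks). IFITM1 is at 1.44 and PARP9 at -0.66, and the ticks of ISG15 and IFITM3 lie left of their points, at 0.48 and 0.38.

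Of the 5 genes named IFI for interferon-inducible, 4 were tested. IFI27, a small mitochondrial and membrane protein, rose (25% of the 4, against 2.30% of all genes tested). IFI27 (ENSG00000165949, chromosome 14, 94104836 to 94116698, plus strand) had 76.6, 93.4 and 64.2 CPM in shPNISR, against 48.1, 57.6 and 50.95 CPM in shNC, and a log2 fold change of 0.58 ± 0.14 (adjusted p = 0.0246). The lowest shPNISR library lay just above the highest control, and the call ended without shNC 1 (adjusted p = 0.12), shPNISR 1 (0.102) or shPNISR 2 (0.141). IFI6, a protein of the endoplasmic reticulum and mitochondria that limits flavivirus replication, had 28.3, 32.7 and 25.6 CPM in shPNISR, against 15.95, 25.4 and 19.5 CPM in shNC. With shNC 2 just under the lowest shPNISR library, IFI6 did not pass (0.51 ± 0.16, adjusted p = 0.0993), and without shNC 2 it did (0.70, adjusted p = 0.00428), as it did with no low-count filter (0.0295).

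IFI35, a partner of NMI, averaged 5.34 ± 0.959 CPM in shPNISR and 3.56 ± 0.312 CPM in shNC without overlap, and did not pass (0.59 ± 0.22, adjusted p = 0.17). IFI44L was near the filter, at 0.647 ± 0.111 CPM in shPNISR and 0.822 ± 0.286 CPM in shNC (-0.32 ± 0.42, adjusted p = 0.74). Its neighbour IFI44 was not tested, with 6, 5 and 8 counts in shPNISR and 9, 6 and 5 counts in shNC. Both were close to the low-count filter in either group.

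IFIT proteins bind viral RNA whose cap or end marks it as foreign, and their genes lie side by side on chromosome 10. None of the 4 passed by edgeR, DESeq2 or limma voom. In edgeR 3 had an unadjusted p under 0.05, all of them higher, against 9.98% of all genes tested in that direction. IFIT1 had 12.6, 15.6 and 14.9 CPM in shPNISR, against 10.05, 10.7 and 9.86 CPM in shNC (0.49 ± 0.16, adjusted p = 0.107). IFIT2 had 3.32, 4.34 and 2.94 CPM in shPNISR, against 1.60, 1.62 and 2.46 CPM in shNC (0.90 ± 0.28, adjusted p = 0.0832). In both genes the groups did not overlap, and IFIT1 passed without shNC 2 (adjusted p = 0.0447) and IFIT2 without shNC 3 (0.0329).

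IFIT3, which binds and stabilizes IFIT1, had 3.97, 3.47 and 2.64 CPM in shPNISR, against 2.26, 2.07 and 2.53 CPM in shNC (0.55 ± 0.26, adjusted p = 0.267). IFIT5 had its values on the other side of 0, at 11.1, 14.6 and 17.2 CPM in shPNISR, against 17.5, 17.2 and 19.25 CPM in shNC (-0.33 ± 0.17, adjusted p = 0.314). Its highest shPNISR library, shPNISR 3, was level with the lowest control, and the groups overlapped. The promoter of IFIT5 held 3 response element matches and that of IFIT1 held 2, as printed above. LIPA overlaps IFIT1, IFIT2 and IFIT3 on the opposite strand.

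Among other effectors, PARP9, an ADP-ribosyltransferase family member that works with the ubiquitin ligase DTX3L, fell. PARP9 (ENSG00000138496, chromosome 3, 122527924 to 122564577, minus strand) had 11.25, 9.49 and 11.7 CPM in shPNISR, against 21.3, 14.2 and 15.8 CPM in shNC. All of shPNISR lay below the controls, of which shNC 1 was highest, and the log2 fold change was -0.66 ± 0.18 (adjusted p = 0.0465). Of the 7 calls in the set it was lost most often, since 9 of the 16 alternatives ended it, among them leaving out shNC 1 (-0.47, adjusted p = 0.354), shPNISR 1 (adjusted p = 0.168), shPNISR 2 (0.169) or shPNISR 3 (0.0991), and scaling by library totals (0.0852). DTX3L, which shares a promoter region with PARP9 and overlaps it on the other strand, had 27.9 ± 1.46 CPM in shPNISR and 34.1 ± 6.97 CPM in shNC and did not pass (-0.29 ± 0.15, adjusted p = 0.317), except without shNC 2 (-0.43, adjusted p = 0.0409).

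MX1, a dynamin-like GTPase that traps viral nucleoproteins, had 12.0, 12.0 and 9.38 CPM in shPNISR, against 5.80, 8.999 and 5.59 CPM in shNC. The groups did not overlap, shNC 2 came close to shPNISR 3, and the test just missed (0.72 ± 0.21, adjusted p = 0.0659). Without shNC 2 it passed (0.96, adjusted p = 0.00227), as it did by DESeq2 (0.0396) and with no low-count filter (0.0161). Its relative MX2 was too low to test, with 5, 5 and 13 counts in shPNISR and 3, 2 and 0 counts in shNC. RSAD2, or viperin, which makes an antiviral nucleotide, had 2, 1 and 1 counts in shPNISR and 1, 0 and 1 counts in shNC. XAF1, a proapoptotic protein, had 1, 1 and 0 counts in shPNISR and 3, 1 and 1 counts in shNC. SAMD9, an antiviral factor against poxviruses, had 2.84, 3.16 and 3.25 CPM in shPNISR, against 2.43, 2.65 and 2.80 CPM in shNC (0.23 ± 0.24, adjusted p = 0.657).

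The transcription factors that carry the signal did not pass by edgeR, DESeq2 or limma voom. In edgeR 1 of the 4 had an unadjusted p under 0.05, in the higher direction, against 9.98% of all genes tested. That gene was IRF7, the factor that amplifies interferon production, with 11.0, 10.5 and 9.87 CPM in shPNISR, against 6.13, 9.13 and 7.86 CPM in shNC (0.44 ± 0.19, adjusted p = 0.215). Its groups did not overlap, and without shNC 2 it passed (0.58, adjusted p = 0.0416). STAT2 had 49.0, 37.4 and 49.1 CPM in shPNISR, against 49.0, 62.3 and 42.2 CPM in shNC (-0.18 ± 0.15, adjusted p = 0.567). IRF1 averaged 16.4 ± 2.16 CPM in shPNISR and 14.97 ± 1.17 CPM in shNC (0.13 ± 0.16, adjusted p = 0.711). IRF9, the DNA-binding part of ISGF3, was low in both groups, at 0.671 ± 0.272 CPM in shPNISR and 0.822 ± 0.153 CPM in shNC (-0.29 ± 0.42, adjusted p = 0.76).

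RNA sensors showed no call by edgeR, DESeq2 or limma voom, and neither tested gene had an unadjusted p under 0.05. IFIH1, the sensor MDA5 of long double-stranded RNA, had 6.99, 6.64 and 7.48 CPM in shPNISR, against 7.18, 5.44 and 5.73 CPM in shNC (0.20 ± 0.20, adjusted p = 0.637). DDX60, a helicase linked to these sensors, averaged 3.90 ± 0.333 CPM in shPNISR and 4.06 ± 0.766 CPM in shNC (-0.06 ± 0.23, adjusted p = 0.918). RIGI, the sensor of 5′-triphosphate RNA, was too low to test, with 3, 2 and 0 counts in shPNISR and 5, 2 and 0 counts in shNC. Counts this low do not allow a comparison at this depth.

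Per kilobase of annotated exon, IFITM3 was the most abundant gene of the set, at 106 ± 17.8 CPM per kb in shPNISR and 71.1 ± 3.15 CPM per kb in shNC (SD, n = 3 each). ISG15 followed with 44.1 ± 8.68 CPM per kb in shPNISR and 26.5 ± 3.05 CPM per kb in shNC. IFI6 stood at 33.4 ± 4.12 CPM per kb in shPNISR and 23.4 ± 5.50 CPM per kb in shNC, and IFITM2 at 24.6 ± 3.62 CPM per kb in shPNISR and 15.5 ± 0.610 CPM per kb in shNC. IFI6 and ISG15 did not differ beyond their spread in shNC. Together the 35 genes took 0.0690%, 0.0682% and 0.0625% of all counts in shPNISR 1 to 3, against 0.0515%, 0.0542% and 0.0498% in shNC 1 to 3, so the groups did not overlap in this share. Much of the difference lay in the 6 genes already called higher. They took 0.0333%, 0.0352% and 0.0271% in shPNISR 1 to 3, against 0.0199%, 0.0206% and 0.0211% in shNC 1 to 3. The share therefore does not show a shift of the whole set.

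**Figure D3:**
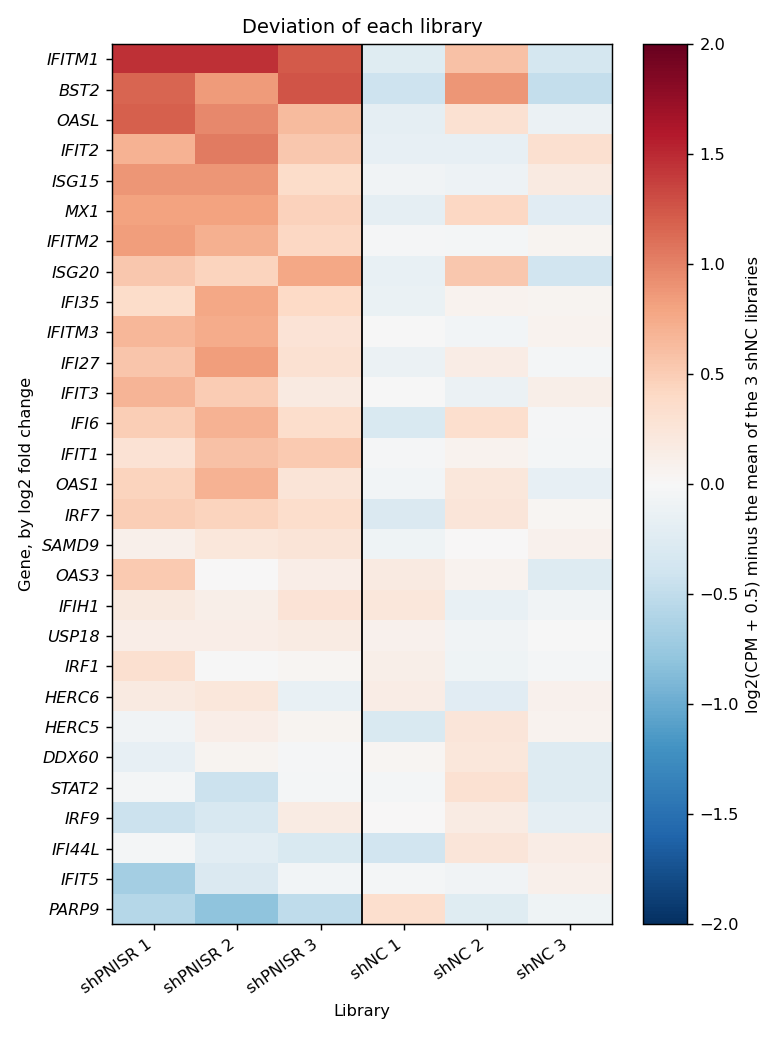
Deviation of each library from the mean of the 3 shNC libraries for the 29 tested genes, as differences of log2(CPM + 0.5) (colour scale), with shPNISR libraries on the left and shNC libraries on the right. The median deviation is 0.44, 0.45 and 0.28 in shPNISR 1 to 3, and in shNC 2 IFITM1, BST2, ISG20 and MX1 are higher than in the other controls.

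The 29 genes did not move evenly across libraries. Their median deviation from the mean of the shNC libraries, in log2(CPM + 0.5), was 0.44, 0.45 and 0.28 in shPNISR 1 to 3, and -0.05, 0.07 and -0.03 in shNC 1 to 3. Over all genes tested the same median stayed between -0.0049 and 0.0083 in every library. Leaving out shNC 2 brought the count of genes that rose to 13, against 7.78% of all genes tested in that fit, and the median log2 fold change to 0.52. The added genes were BST2, IFI6, IFIT1, ISG20, IRF7, MX1 and OAS1. Leaving out shPNISR 1 left IFITM1 as the only gene that rose, against 0.811% of all genes, and a median of 0.42.

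GC content and length moved with the result as well, and their part in it beyond the corrected values was not tested. All 6 genes that rose had a GC content above the median of all tested genes (54.0% to 64.0%, against a median of 49.7%) and an exon length below the median (941 to 4147 bases, against 4612). The 4671 tested genes with GC above and length below the median had a median log2 fold change of 0.12, and the 4671 with GC below and length above it had -0.13. After each library was corrected for both, 5 genes rose (IFITM1, IFITM2, OASL, IFI27 and IFIT1), against 1.91% of all genes, and the median log2 fold change was 0.38. ISG15 (0.48, adjusted p = 0.058) and IFITM3 (0.38, adjusted p = 0.0579) then missed the threshold, as did PARP9 (-0.52, adjusted p = 0.0855), and IFIT1 (0.59, adjusted p = 0.0353) gained it.

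**Figure D4:**
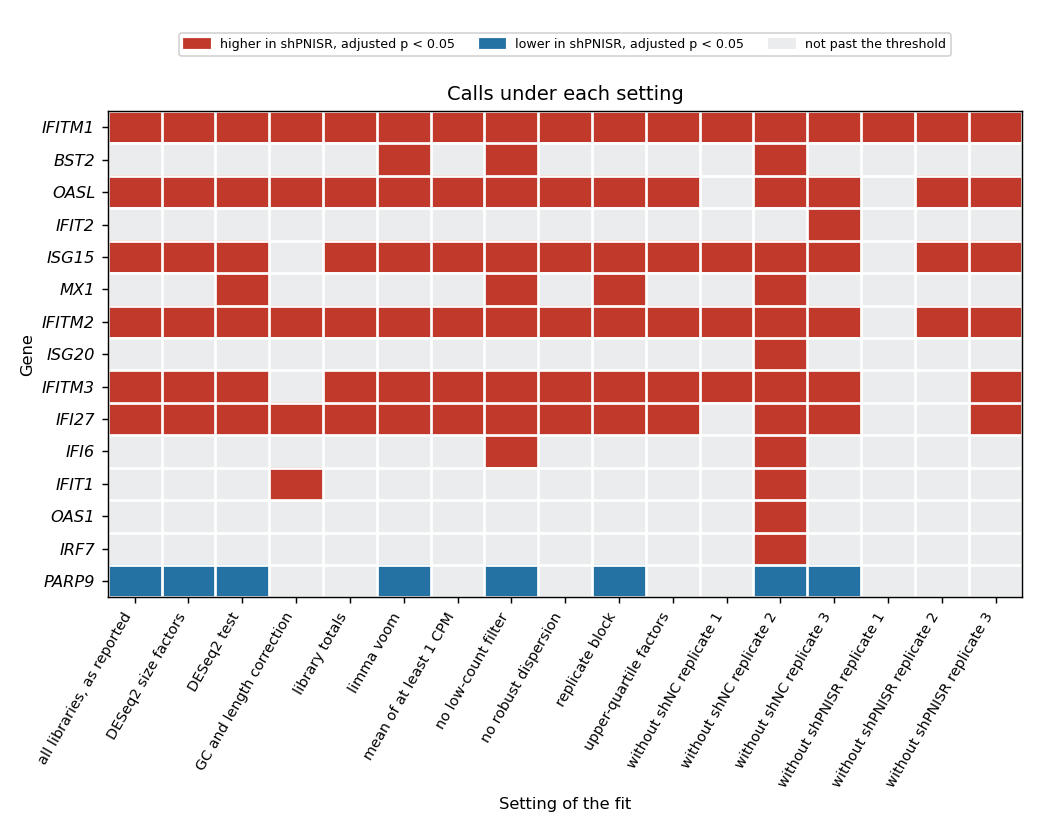
Calls for each of the 15 genes that passed in any fit (rows) under the reported fit and the 16 alternatives (columns); red marks higher in shPNISR, blue lower and grey not past an adjusted p of 0.05. IFITM1 is red throughout, leaving out shNC 2 gives the most red cells with 13, and leaving out shPNISR 1 gives 1.

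Genes that held the response element letters were found among those that rose, the gene that fell and those that did not pass. Of 18 tested genes with a match, 4 rose, 1 fell and 13 did not pass. Over all genes tested 2.30% rose and 0.832% fell. The log2 fold changes of the 18 ran from -0.66 in PARP9 to 1.44 in IFITM1 with a median of 0.50. Of the 6 tested genes with a window and no match, none rose by edgeR, and their log2 fold changes ran from -0.29 in IRF9 to 0.59 in IFI35 with a median of 0.11. HERC5, with 3 matches, was at 0.03. IFITM2 and OASL also rose but had no window, so they are in neither group. The difference between the genes with and without a match was not tested.

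**Figure D5:**
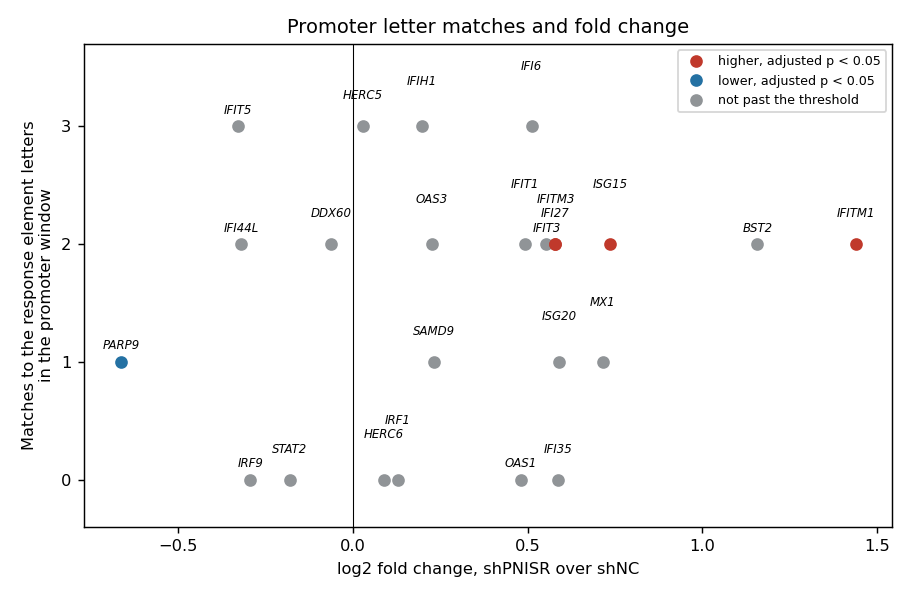
Number of matches to the response element letters in the promoter window with the most matches (y axis) against the log2 fold change of shPNISR over shNC (x axis) for the 24 tested genes with a RefSeq window, 1 point a gene (red passed higher, blue lower, grey did not pass). Genes with 2 matches spread from -0.32 in IFI44L to 1.44 in IFITM1.

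Further along the pathway, the interferons themselves were all but undetected. Of 9 interferon genes, IFNB1, IFNA1, IFNA2, IFNG, IFNK, IFNL2 and IFNL3 had 0 counts in every library, and IFNE and IFNL1 had 1 count each, in shPNISR 2 and shPNISR 3. A count of 0 allows up to 3 counts, or 0.173 to 0.191 CPM in a shPNISR library and 0.167 to 0.199 CPM in a shNC library, for counting error only. None of the 8 tested receptors and kinases passed by edgeR, DESeq2 or limma voom, and 0 had an unadjusted p under 0.05. JAK1 averaged 127 ± 10.5 CPM in shPNISR and 142 ± 17.7 CPM in shNC, and IFNGR1, a chain of the interferon gamma receptor, 139 ± 11.95 CPM in shPNISR and 124 ± 23.1 CPM in shNC.

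None of the 8 signal factors passed by any of the same tests either, with 1 at an unadjusted p under 0.05 in edgeR. Over all genes tested 9.98% had such a p in the higher direction and 7.79% in the lower. STAT3 averaged 120 ± 7.18 CPM in shPNISR and 136 ± 12.2 CPM in shNC (-0.19 ± 0.11, adjusted p = 0.379). Of 11 tested sensors and adaptors of nucleic acid signalling, STING1 rose (9.09%, against 2.30% of all genes tested) and the other 10 did not pass. STING1, the membrane adaptor that relays cyclic dinucleotides made after DNA is sensed, had 28.2, 31.6 and 27.3 CPM in shPNISR, against 17.996, 19.1 and 18.7 CPM in shNC (0.64 ± 0.13, adjusted p = 0.0113). The groups lay far apart, yet the call ended without shNC 1 (0.0714), shPNISR 1 (0.0528) or shPNISR 2 (0.0653).

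Of 8 negative regulators 1 rose (12.5%, against 2.30% of all genes tested). This gene, PTPN6, encodes the phosphatase SHP-1 and rose to 24.2, 20.2 and 20.7 CPM in shPNISR, against 13.5, 16.4 and 14.3 CPM in shNC (0.56 ± 0.15, adjusted p = 0.0463). That call ended in 9 of the 16 alternatives, among them leaving out any library except shNC 2 (adjusted p 0.076 to 0.249). The other 7 did not pass with all libraries, and PTPN2 passed without shNC 2 (-0.44, adjusted p = 0.0412). Of 36 tested interferon-stimulated genes outside the set, 4 rose (11.1%, against 2.30% of all genes tested) and 32 did not pass. Among the 4, IFI16 was tested only because its shPNISR libraries passed the low-count filter. None of the 36 fell by edgeR, DESeq2 or limma voom, and 2 had an unadjusted p under 0.05 in the lower direction, against 7.79% of all genes. The median log2 fold change of the 36 was 0.14. Among the 32, GBP2 did not pass with all libraries (0.83 ± 0.31, adjusted p = 0.168). It passed in 3 of the 16 alternatives, among them without shNC 2 (1.37, adjusted p = 0.000972).

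APOL1, a lipoprotein that lyses trypanosomes, had 19.5, 20.3 and 18.5 CPM in shPNISR, against 8.39, 10.6 and 7.93 CPM in shNC, and rose by 1.12 ± 0.16 (adjusted p = 0.000694). IFI16, a nuclear DNA sensor, had 31, 47 and 55 counts in shPNISR, against 10, 9 and 3 counts in shNC, and rose by 2.56 ± 0.40 (adjusted p = 0.00131). Both passed in all 16 alternatives, with groups that did not overlap. IFI16 averaged 0.445 CPM in shNC and passed the low-count filter only through shPNISR, so its place among the tested genes rests on its high group. LGALS3BP, a secreted glycoprotein, had 243, 230 and 211 CPM in shPNISR, against 151, 174 and 156 CPM in shNC (0.51 ± 0.11, adjusted p = 0.0134), and its call ended without shNC 1 (0.101) or shPNISR 1 (0.105). RBCK1, or HOIL-1, a subunit of the linear ubiquitin ligase, averaged 81.8 ± 2.24 CPM in shPNISR and 61.9 ± 1.54 CPM in shNC (0.40 ± 0.11, adjusted p = 0.0479). Its call ended in 9 alternatives, among them leaving out any library except shNC 2 (adjusted p 0.0825 to 0.249) and correcting for GC and length (0.23, adjusted p = 0.198).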

How the data were processed

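RNA-seq of 6 HCT-8 libraries was analysed, 3 of shPNISR and 3 of shNC. The authors deposited a table of raw read counts, 1 row per Ensembl gene ID. Per the submitters' processing notes, HISAT2 2.0.4 and GRCh38 were used. The read counter, annotation release and strand setting were not given in the sources used here. Column names equal the library titles. Replicates differed by more than sampling noise (chi-square per degree of freedom 8.99 to 20.6), so all were kept. Symbols came from a supplied ID table; GENCODE 29 on GRCh38 supplied positions, exon lengths, GC content and overlapping genes, and held 99.3% of the tested genes.

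Genes were filtered with filterByExpr (minimum count 10, total 15), scaled by TMM and tested (R 4.3.3, edgeR 4.0.16, quasi-likelihood with robust dispersion) for shPNISR against shNC, adjusted over all 16102 genes at 0.05. SE was taken from the fold change and F statistic. On data simulated for shPNISR against shNC (15866 genes), the test found 94 of 100 genes simulated with a 2-fold change and 50 of 100 with a 1.5-fold change, beside 14 false calls. The changed genes were drawn only from those with an expected count of at least 50. Recovery of genes below that count, as several of the set are, was not tested. Genes were simulated independently, so the figures do not cover a shift shared by many genes in a library, such as that of shNC 2. As alternatives, scaling used DESeq2 size factors, upper quartiles or library totals; filtering was dropped or set to a mean CPM of 1 or more; the tests were DESeq2 1.42.0 and voom in limma 3.58.1; further fits dropped the robust option, took the replicate number as a block, or left out each library in turn; the last had a loess correction (span 0.4) for GC content and length. All genes of the set are named; of other lists, those that passed are named (at most 4, by adjusted p), or the 2 most abundant where none did. DTX3L, GBP2, PTPN2, LGALS4, KRT8, KRT20, TCF4 and the markers at 0 were named after their values were seen. So were GBP1, RTP4, CXCL10, CXCL11, TNFSF10, IFI30 and SAMD9L. A gene that this rule would name among the signal factors is not reported here. The set and the lists were chosen with earlier results of these data known. Intervals and limits cover counting error only. Figures were drawn with matplotlib 3.10.9.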

Additional observations from a re-analysis of the deposited data

How the results depend on the processing

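Of 462 comparisons of a gene of the set with an alternative fit, 427 kept their side of the threshold, 20 lost it, 15 gained it, and no call changed direction; 3 genes that did not pass changed sign in some alternative. The 6 genes that rose stayed above 0 in all 16 alternatives. The median log2 fold change of the set ran from 0.36 (without shNC 1) to 0.52 (without shNC 2). The count of genes in the set that rose ran from 1 to 13 when 1 library was left out, and that of genes that fell from 0 to 1. It was 0 lower when GC and length were corrected for, with library totals, at a mean of at least 1 CPM, without robust dispersion, and with upper-quartile factors. Over all genes, leaving out 1 library gave 133 to 1284 higher and 30 to 746 lower. With no low-count filter there were 642 higher and 354 lower, DESeq2 gave 229 lower, and library totals gave 71 lower. The difference in the share of counts held by the set, shPNISR minus shNC, was 0.0147 percentage points and ran from 0.0135 to 0.0167 when 1 library was left out. The replicate numbers gave correlations of deviations of 0.119, -0.0814 and -0.15, so they were not taken as pairs. With the replicate number as a block 390 genes were higher and 118 lower, and in the set 7 were higher and 1 lower, with MX1 added (adjusted p = 0.0461). Genes that did not pass the low-count filter were too low to compare at this depth. A gene low in only 1 group could pass that filter through the other, as IFI16 did through shPNISR and LYZ through shNC. The causes of these changes were not tested.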

Other observations

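Of 9 tested markers of colorectal epithelium, 1 rose (11.1%, against 2.30% of all genes tested), 1 fell (11.1%, against 0.832%) and 7 did not pass by edgeR. DESeq2 and limma voom each called 2 higher, against 2.96% and 2.63% of all genes. Among the 7, LGALS4 missed the threshold (0.71 ± 0.19, adjusted p = 0.0642). It passed in 6 of the 16 alternatives, among them DESeq2, limma voom and leaving out shNC 2 (1.04, adjusted p = 2.96e-05). KRT19, a simple-epithelium keratin, had 615, 647 and 518 CPM in shPNISR, against 315, 495 and 354 CPM in shNC, and rose by 0.61 ± 0.15 on the log2 scale (adjusted p = 0.0365). CDX1, a transcription factor of intestinal identity, had 3.20, 3.85 and 3.13 CPM in shPNISR, against 7.67, 6.73 and 6.73 CPM in shNC, and fell by 1.06 ± 0.21 (adjusted p = 0.00798). The call of KRT19 ended when shNC 1 or any shPNISR library was left out and when GC and length were corrected for (adjusted p 0.0571 to 0.169), and that of CDX1 without shPNISR 1 (0.0686) or shPNISR 3 (0.0515). Of 4 tested leukocyte markers 1 fell (25%, against 0.832% of all genes tested) and 3 did not pass. LYZ, the lysozyme gene on that list and also made by Paneth cells of the intestine, had 1, 5 and 8 counts in shPNISR, against 16, 21 and 21 counts in shNC, and fell by 2.05 ± 0.51 (adjusted p = 0.0337). LYZ averaged 0.287 CPM in shPNISR and passed the low-count filter only through shNC, so its place among the 4 tested markers rests on its high group. The call of LYZ ended with library totals (0.0605) and without any shPNISR library (0.0564 to 0.189). Of the interferon-stimulated genes outside the set, 7 were too low to test, and they are named here after their values were seen. RTP4 had 0 counts in every library, and CXCL10 had 0 counts in all of shPNISR and 3, 0 and 0 counts in shNC. GBP1 had 3, 2 and 2 counts in shPNISR and 2, 5 and 1 counts in shNC. CXCL11 had 6, 8 and 4 counts in shPNISR and 10, 4 and 3 counts in shNC. TNFSF10 had 7, 4 and 13 counts in shPNISR and 4, 1 and 3 counts in shNC. IFI30 had 1, 2 and 9 counts in shPNISR and 0, 1 and 0 counts in shNC. SAMD9L had 5, 4 and 5 counts in shPNISR and 11, 7 and 1 counts in shNC.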
